A study of Mus musculus with 12 samples.

Results

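Deep zone (DZ) chondrocytes from mice with a cartilage deletion of Runx3 were compared with DZ chondrocytes from control littermates, gene by gene. All libraries whose titles name DZ cells were taken, which gave 6 of the 12 libraries of the series, 3 from each genotype, and genes are called apart, or without overlap, where all 3 Runx3cKO values lay above or all below the 3 Cntl values. Some genes that overlapped are described as well. Of 17536 genes in the table, 11091 passed the filter on low values and were compared.

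The mice were 5 days old and of the C57BL/6J strain by the study's methods, written C57BL/6 in the sample labels. Runx3cKO mice carried Col2a1-Cre and Runx3 fl/fl, so that the promoter of the type II collagen gene drove the recombinase, and Cntl mice carried Runx3 fl/fl without Cre. Superficial zone (SFZ) cells were released first from the ends of the femur and tibia, collagenase then freed the DZ cells from what was left, and all cells were grown as monolayers, which limits how far the values describe cells inside the tissue. Each library was made from an individual mouse, and the 3 replicate numbers are written below as numbers 1, 2 and 3, always in that order. Values are FPKM, read fragments normalised to transcript length and library size, scaled between libraries by the authors; the depth is unknown, since no read counts were analysed here.

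Runx3 belongs to a family of 3 transcription factors that share a DNA-binding Runt domain, a partner subunit encoded by Cbfb, and a short recognition sequence. In the skeleton Runx2 directs osteoblast formation and the hypertrophy of chondrocytes, and Runx3 acts beside it in cartilage. In deep cartilage, maturing chondrocytes enlarge, change their matrix from type II collagen and aggrecan towards a mineralizing one, and make alkaline phosphatase. In monolayer culture, chondrocytes can also lose matrix expression and gain features of fibroblasts, including actin stress fibres.

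Runx3 itself measured 12.7, 12.7 and 7.66 FPKM in the Cntl libraries and 15.9, 12.7 and 8.14 FPKM in the Runx3cKO libraries. Runx3 was not lower in Runx3cKO, and the groups overlapped. The log2 fold change, Runx3cKO over Cntl on the log2(FPKM + 1) scale used throughout, was 0.13 (SE 0.28), with 3 libraries per group here and below. Which part of the gene the floxed allele removes was not given in the sources used here, and the value covers the whole gene, so it may not show the deletion, and all directions below are those of libraries labelled Runx3cKO. Runx2 measured 6.49, 6.81 and 8.85 FPKM in the Cntl libraries and 10.3, 9.21 and 8.38 FPKM in the Runx3cKO libraries. Its 6 values overlapped between genotypes. Runx1 measured 1.73, 2.15 and 3.37 FPKM in the Cntl libraries and 3.12, 2.97 and 5.82 FPKM in the Runx3cKO libraries, higher in Runx3cKO in each number, and its groups overlapped. Cbfb, the shared partner subunit, measured 41.4, 52.1 and 49.95 FPKM in the Cntl libraries and 42.3, 46.6 and 34.7 FPKM in the Runx3cKO libraries, again with overlap.

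The DZ label was checked against cartilage genes. All 10 chondrocyte markers were present in every DZ library, and their summed level was 36072, 22799 and 29680 FPKM in the Cntl and 24214, 16199 and 29202 FPKM in the Runx3cKO libraries, of which Col2a1, the main cartilage collagen, held the most. Number 2 was lowest in both genotypes. Prg4, which encodes the lubricant of the joint surface and marks SFZ cells, measured 1.39, 1.22 and 1.47 FPKM in the Cntl libraries and 5.72, 1.32 and 2.14 FPKM in the Runx3cKO libraries. The SFZ libraries had 22.2, 8.38 and 7.13 FPKM in SFZ Cntl and 6.95, 2.47 and 2.13 FPKM in SFZ Runx3cKO libraries. The DZ Cntl libraries lay below all SFZ Cntl libraries, while the Runx3cKO libraries of the 2 zones overlapped, with DZ library 1 the highest DZ value.

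Transcripts of the Y chromosome divided the libraries by number. The 4 Y-linked genes summed to 39.96, 16.8 and 17.01 FPKM in the Cntl and 29.6, 0.01 and 0.03 FPKM in the Runx3cKO libraries. Number 1 had them in both genotypes, while in numbers 2 and 3 the Cntl library had them and the Runx3cKO library was near 0. In numbers 2 and 3 the genotype and the presence of Y transcripts therefore cannot be told apart, and the differences within number 1 are given for several genes.

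In DZ cells, Runx3cKO libraries held less RNA of the mineralization genes Mgp and Alpl, of the cartilage matrix gene Hapln1, and of Ppp1r1b. They held more of Lox, of the actin cytoskeleton gene Acta2, and of the surface genes Ly6a and Ly6c1. Each gene named in these sentences had groups that did not overlap.

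Of the 11091 genes, 583 (5.26%) were higher and 308 (2.78%) lower in Runx3cKO without overlap, 891 in all (8.03%). The values of these genes chose them, so the counts describe the choice. The difference was small for most. It was under 1.5-fold for 457 of the higher genes and 255 of the lower ones, and over 2-fold for 48 and 18. The balance between directions depended on the scaling. With quantile normalization 418 genes were higher and 603 lower, and with median-of-ratios size factors 488 were higher and 450 lower, while the median log2 fold change of all genes moved from 0.05 to -0.02 and 0.00. Of the 583 higher genes, 320 were also separated after quantile normalization and 398 with median-of-ratios size factors, and of the 308 lower genes, 249 and 258. Among those separated by over 1.5-fold, 120 of 126 higher and 50 of 53 lower genes were also separated after quantile normalization.

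**Figure D1:**
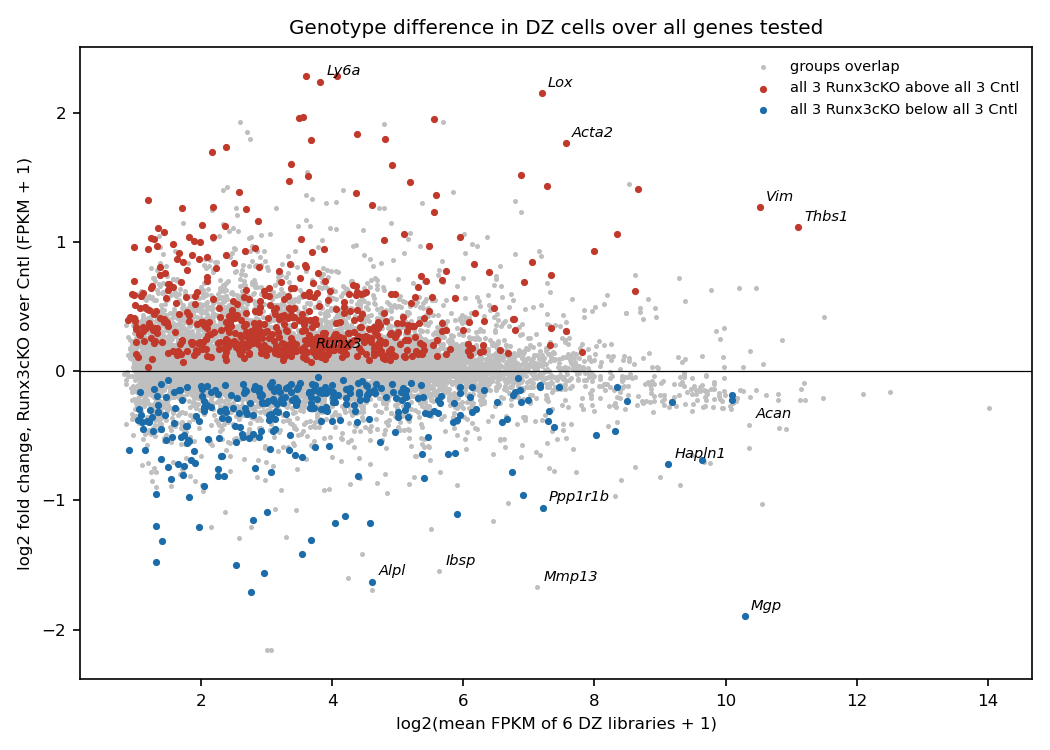
Log2 fold change (Runx3cKO over Cntl, FPKM + 1) of the 11091 genes compared in DZ cells, against log2 of their mean FPKM + 1 in 6 libraries. Red points are the 583 genes whose 3 Runx3cKO values lay above all 3 Cntl values, blue points the 308 that lay below, and grey points overlapped.

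In the limma fit with genotype as the only term, 277 genes (2.5%) were higher and 127 (1.15%) lower at an unadjusted p under 0.05. None passed an adjusted p under 0.05, and limma's lowest adjusted p was 0.999. An exact permutation test of 3 against 3 libraries cannot go below 0.1. Same-numbered libraries varied together, so the number was also fitted as a replicate block. The paired fit gave 1278 higher (11.5%) and 552 lower genes (4.98%) at an unadjusted p under 0.05, and limma's lowest adjusted p was 0.0587, shared by 9 genes. The split of these counts moved with the scaling as well. With quantile normalization it was 237 higher and 212 lower genes unpaired and 962 and 992 paired, and with median-of-ratios size factors it was 254 and 165 unpaired and 1057 and 744 paired. These paired combinations were chosen after the data were seen. The unpaired count depended on single libraries. It was 404 genes with all libraries, 222 without Cntl library 1, 239 without Runx3cKO library 1, 211 without Runx3cKO library 2 and 773 without Runx3cKO library 3. Counts of genes without overlap were larger with any 1 library left out, from 1439 to 2583 in all, since fewer libraries have to be separated. Without Cntl libraries 1, 2 and 3, 741 of 11022, 1486 of 10960 and 1217 of 10984 genes were higher, and 698, 556 and 812 lower. Without Runx3cKO libraries 1, 2 and 3, 947 of 10922, 965 of 10958 and 1803 of 10983 were higher, and 658, 504 and 780 lower. The counts of list members given below with a library left out stand beside these. In bulk RNA, fewer cells of a type and less RNA per cell cannot be told apart.

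Several genes of hypertrophy and mineralization were lower in DZ cells of Runx3cKO mice. Mgp encodes matrix Gla protein, an inhibitor of calcification that is abundant in cartilage (gene 17313, chr6:136820957-136824326, minus strand of mm9). It measured 1553, 1104 and 3157 FPKM in the Cntl libraries and 371, 266 and 1065 FPKM in the Runx3cKO libraries. All 3 Runx3cKO values were below the lowest Cntl value, and number 3 was highest in both genotypes. Mgp had a log2 fold change of -1.89 (SE 0.60), and the differences within numbers were -2.06, -2.05 and -1.57. With the replicate block the SE was 0.15 and limma's adjusted p 0.0587.

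Alpl encodes tissue-nonspecific alkaline phosphatase, which frees phosphate for mineral (gene 11647, chr4:137297648-137352299, minus strand of mm9). It measured 22.9, 34.6 and 51.4 FPKM in the Cntl libraries and 11.9, 8.43 and 11.4 FPKM in the Runx3cKO libraries. The groups were apart, the Runx3cKO values lay close together, and Cntl number 1 was the nearest to them. Alpl had a log2 fold change of -1.63 (SE 0.29), and within numbers it was -0.89, -1.92 and -2.08, so that number 1, where both libraries had Y transcripts, showed the smallest difference.

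Ibsp encodes integrin-binding sialoprotein of mineralized matrix. It measured 48.6, 33.3 and 137 FPKM in the Cntl libraries and 20.1, 8.95 and 44.2 FPKM in the Runx3cKO libraries. Runx3cKO was lower in each number, but Runx3cKO library 3 exceeded Cntl library 2, so the groups overlapped. Its log2 fold change was -1.54 (SE 0.69), -0.96 without Cntl library 3 and -0.999 without Runx3cKO library 2, with an SE of 0.12 and a limma adjusted p of 0.0587 in the paired fit. Mmp13, the collagenase of hypertrophic cartilage, measured 51.3, 165 and 454 FPKM in the Cntl libraries and 26.3, 50.6 and 86.2 FPKM in the Runx3cKO libraries. The numbers spread widely and the groups overlapped, while each number was lower in Runx3cKO, at -0.94, -1.69 and -2.38 on the log2 scale. Its log2 fold change was -1.67 (SE 0.80), or -0.91 without Cntl library 3.

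Bglap encodes osteocalcin, a bone matrix protein. It measured 1.62, 3.65 and 3.06 FPKM in the Cntl libraries and 1.04, 0 and 0.57 FPKM in the Runx3cKO libraries. All were low, the Runx3cKO values lay below, and 1 library was listed at 0. Reads of Bglap and its near copy Bglap2 may have been divided between them by the counting. Sp7, a transcription factor of osteoblasts and hypertrophic chondrocytes, measured 12.4, 14.8 and 12.4 FPKM in the Cntl libraries and 10.5, 7.63 and 6.15 FPKM in the Runx3cKO libraries. Its groups were apart by a narrow margin, and number 1 differed least. Pth1r, the receptor through which parathyroid hormone-related protein restrains hypertrophy, measured 77.8, 57.2 and 60.6 FPKM in the Cntl libraries and 56.2, 35.2 and 35.3 FPKM in the Runx3cKO libraries. Here Runx3cKO library 1 lay just below the lowest Cntl value. Bglap had a log2 fold change of -1.32 (SE 0.33), or -2.69 when 0.1 and -0.49 when 5 was added in place of 1. That of Sp7 was -0.66 (SE 0.19), and that of Pth1r was -0.64 (SE 0.22).

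**Figure D2:**
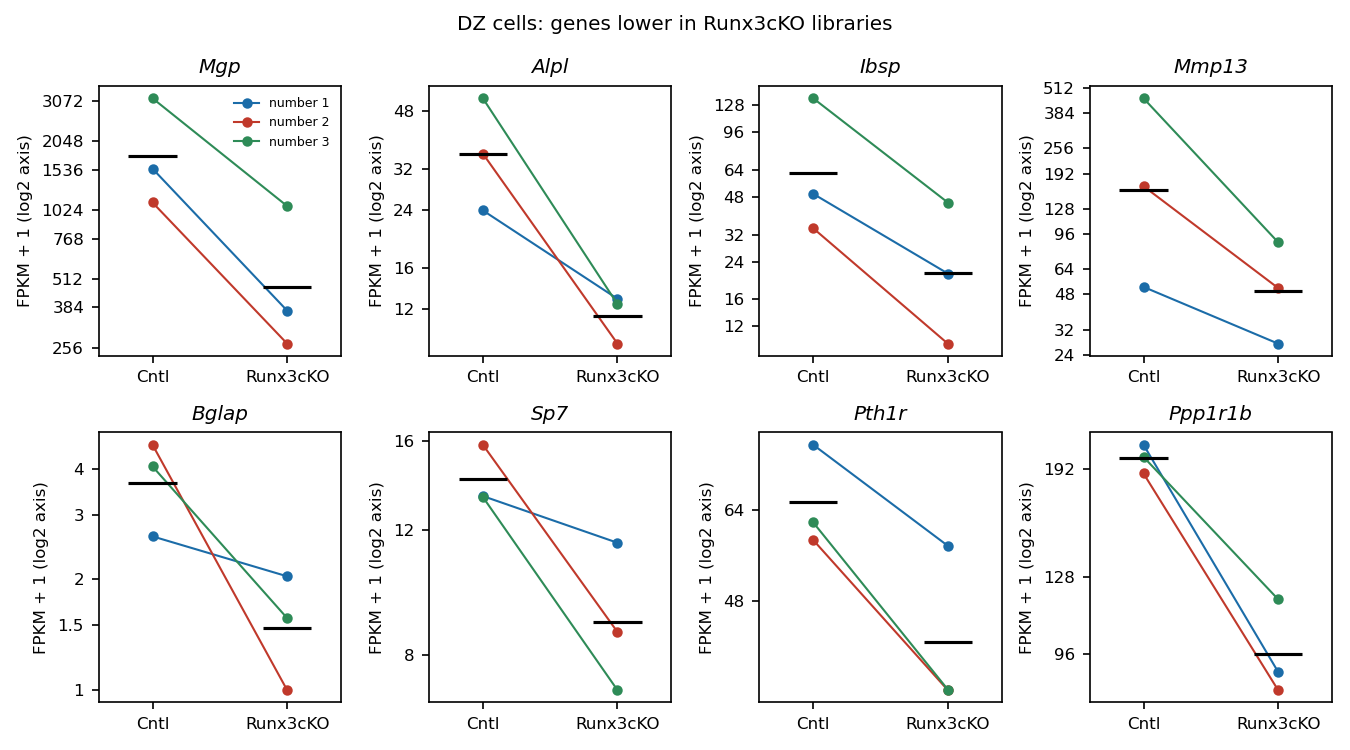
FPKM + 1 on a log2 axis of 8 genes lower in Runx3cKO, in the 6 DZ libraries, with lines joining libraries of the same number and black bars at the mean of log2 values. In every panel each Runx3cKO point lies below the Cntl point of its number, and the groups overlap for Ibsp and Mmp13.

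Of the 28 genes compared in the list for hypertrophy and mineralization, 6 were lower without overlap (Mgp, Alpl, Bglap, Sp7, Pth1r and Bmp6) and 0 higher, beside 2.78% and 5.26% of all genes compared. Bglap counts among the 6, and it passed the filter only through the Cntl libraries, where it is high. For this gene the filter itself favoured that direction. The median log2 fold change was -0.38, against 0.05 over all genes compared, and it was -0.35, -0.63 and -0.55 in numbers 1, 2 and 3. In the paired limma fit 13 of the 28 were lower at an unadjusted p under 0.05 and 0 higher, beside 4.98% and 11.5% of all genes. With fewer libraries to separate, 10 were lower and 0 higher without Runx3cKO library 1, 12 lower and 2 higher without Runx3cKO library 3, 9 and 0 without Cntl library 1, 8 and 1 without Cntl library 2, and 7 and 0 without Cntl library 3 or Runx3cKO library 2. Over all genes compared, 658 of 10922 were lower and 947 higher without Runx3cKO library 1. Without Runx3cKO library 3, 780 of 10983 were lower and 1803 higher. Col10a1 and Spp1 were chosen after their values were seen, as well-known genes of hypertrophic and mineralizing cells. Col10a1, the collagen of hypertrophic cartilage, measured 793, 241 and 68.8 FPKM in the Cntl libraries and 289, 318 and 59.2 FPKM in the Runx3cKO libraries. It varied over 10-fold between libraries, with no common direction between genotypes. Spp1, which encodes osteopontin, measured 285, 318 and 846 FPKM in the Cntl libraries and 291, 440.01 and 639.6 FPKM in the Runx3cKO libraries, with overlap and no common direction.

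Osteoblast markers were present in DZ libraries and overlap with this list. Of 15 markers, 8 were compared and 3 were lower without overlap (Bglap, Sp7 and Alpl) and 0 higher, beside 2.78% and 5.26% of all genes compared. Bglap, which passed the filter only through the Cntl libraries, counts among the 3. Without Runx3cKO library 3, 6 were lower and 1 higher, and without Cntl library 3, 3 and 1. Of the 8 markers, 6 were lower in the paired limma fit at an unadjusted p under 0.05 and 0 higher, beside 4.98% and 11.5% of all genes. The median log2 fold change was -0.77, or -1.22 without Cntl library 1. Their summed level, mostly Col1a1, was 189, 427 and 1353 FPKM in the Cntl and 158, 333 and 781 FPKM in the Runx3cKO libraries. It was lower in Runx3cKO in each number and differed more between numbers than between genotypes. The part of such cells in the lower values was not tested.

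Ppp1r1b encodes a regulatory inhibitor of protein phosphatase 1 that is controlled by cyclic AMP signalling (gene 19049, chr11:98209718-98219110, plus strand of mm9). It measured 209, 188 and 199.6 FPKM in the Cntl libraries and 88.7, 82.8 and 117 FPKM in the Runx3cKO libraries. The Cntl libraries lay close together, the Runx3cKO libraries did too, and a wide gap separated them. Its log2 fold change was -1.05 (SE 0.16), within numbers -1.23, -1.17 and -0.77, and limma's paired adjusted p was 0.117.

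Among cartilage matrix genes, Hapln1 and Col11a2 were apart. Hapln1 encodes the link protein that joins aggrecan to hyaluronan, and it measured 821, 664 and 590.4 FPKM in the Cntl libraries and 475, 342 and 441 FPKM in the Runx3cKO libraries. The groups were apart, with a log2 fold change of -0.72 (SE 0.20) and differences within numbers of -0.79, -0.96 and -0.42. Col11a2, a chain of the type XI collagen of cartilage fibrils, measured 1144, 848 and 959.6 FPKM in the Cntl libraries and 651, 465 and 737 FPKM in the Runx3cKO libraries. It was also apart, at -0.69 (SE 0.22). Acan, which encodes aggrecan, measured 2046, 1112 and 1339 FPKM in the Cntl libraries and 1418, 738 and 1230.2 FPKM in the Runx3cKO libraries. It was lower in Runx3cKO in each number, at -0.53, -0.59 and -0.12, and the groups overlapped. Its log2 fold change was -0.41 (SE 0.33), or -0.13 without Runx3cKO library 2 and -0.17 without Cntl library 1. Matn1, a cartilage adaptor protein, measured 2134, 863 and 2499.9 FPKM in the Cntl libraries and 1009, 234 and 2278 FPKM in the Runx3cKO libraries. It was lowest in number 2 of both genotypes, and the groups overlapped. The log2 fold change of Matn1 was -1.03 (SE 0.85), or -0.13 without Runx3cKO library 2 and -1.77 without Runx3cKO library 3. Of 24 matrix genes compared, 2 were lower without overlap and 0 higher, beside 2.78% and 5.26% of all genes compared, and 13 were lower in each number against 1 higher in each. Over all 11091 genes, 1485 were lower and 2955 higher in each number. Of the 24, 14 were lower in the paired limma fit at an unadjusted p under 0.05 and 0 higher, beside 4.98% and 11.5% of all genes. The median was -0.54, and -0.68, -0.74 and -0.15 in numbers 1, 2 and 3. It was -0.22 without Runx3cKO library 2 and -0.32 without Cntl library 1, and 6, 6 and 8 genes were lower without overlap when Cntl library 2, Runx3cKO library 1 or Runx3cKO library 3 was left out. Without Cntl library 3, 2 were lower and 1 higher. Sox9, the main cartilage transcription factor, measured 109, 91.5 and 91.1 FPKM in the Cntl libraries and 105, 87.6 and 111 FPKM in the Runx3cKO libraries, with overlap. Its partner Sox5 measured 10.4, 10.3 and 11.1 FPKM in the Cntl libraries and 8.19, 9.31 and 9.82 FPKM in the Runx3cKO libraries. Sox5 was apart by a small margin, at -0.20.

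Genes of sulfate supply to proteoglycans were also looked at. Slc26a2, the sulfate transporter, measured 81.3, 70.4 and 59.05 FPKM in the Cntl libraries and 50.4, 40.3 and 43.8 FPKM in the Runx3cKO libraries. The groups were apart, and the log2 fold change was -0.63 (SE 0.16). Papss2, which makes the sulfate donor, measured 745, 385 and 361 FPKM in the Cntl libraries and 368, 214 and 281 FPKM in the Runx3cKO libraries. Runx3cKO was lower in each number and the groups overlapped, with a log2 fold change of -0.74 (SE 0.33), or -0.41 without Cntl library 1. In the whole sulfation and glycosaminoglycan list, 4 of 36 genes were higher and 3 lower without overlap (5.26% and 2.78% of all genes compared), with a median of 0.06, which was -0.01 with quantile normalization, 0.16 without Cntl library 3 and 0.15 without Runx3cKO library 1. It was 0.03 without Cntl library 1 or 2, 0.02 without Runx3cKO library 2 and 0.01 without Runx3cKO library 3. Without Cntl library 3, 10 were higher and 6 lower, and without Runx3cKO library 3, 7 and 7. In the paired limma fit 8 were higher and 8 lower at an unadjusted p under 0.05, beside 11.5% and 4.98% of all genes.

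A few ligand genes, low in level, were lower in Runx3cKO. Bmp6, a bone morphogenetic protein, measured 6.84, 4.57 and 4.04 FPKM in the Cntl libraries and 2.78, 2.27 and 2.3 FPKM in the Runx3cKO libraries. Wnt11, a Wnt ligand, measured 4.78, 3.49 and 2.66 FPKM in the Cntl libraries and 2.34, 2.05 and 1.12 FPKM in the Runx3cKO libraries. Wnt5b, another, measured 4.93, 2.44 and 2.27 FPKM in the Cntl libraries and 1.98, 1.41 and 1.02 FPKM in the Runx3cKO libraries. All 3 genes were apart, and Cntl library 1 was highest in each. Bmp6 had a log2 fold change of -0.81 (SE 0.19). That of Wnt11 was -0.71 (SE 0.24), and that of Wnt5b was -0.73 (SE 0.27), or -0.46 without Cntl library 1. With 5 added in place of 1, they were -0.44, -0.34 and -0.33 in the same order. In the Wnt list 3 of 37 genes were lower without overlap and 0 higher, where 2.78% and 5.26% of all genes compared were, and the median was 0.02, or -0.07 with quantile normalization and -0.17 without Cntl library 1. The counts were 0 higher and 8 lower without Cntl library 1, 5 and 4 without Cntl library 2, 6 and 4 without Cntl library 3, 1 and 5 without Runx3cKO library 1, 0 and 6 without Runx3cKO library 2, and 2 and 4 without Runx3cKO library 3. In the paired limma fit 4 of the 37 were higher and 8 lower at an unadjusted p under 0.05, beside 11.5% and 4.98% of all genes. In the list for BMP and TGF-beta signalling, 4 of 51 genes were higher and 3 lower without overlap, beside 5.26% and 2.78% of all genes compared. The median was 0.13, or -0.02 without Cntl library 1 and 0.04 without Runx3cKO library 2. Above 0 were 31 of 51, beside 6910 of all 11091 genes compared, a similar share. In the paired limma fit 16 of the 51 were higher and 6 lower at an unadjusted p under 0.05, beside 11.5% and 4.98% of all genes. Counts without overlap in this list were 5 higher and 7 lower without Cntl library 1, 6 and 4 without Cntl library 2, 7 and 3 without Cntl library 3, 8 and 7 without Runx3cKO library 1, 5 and 4 without Runx3cKO library 2, and 17 and 3 without Runx3cKO library 3. Over all genes compared, 741 of 11022 were higher and 698 lower without Cntl library 1. Without Runx3cKO library 3, 1803 of 10983 were higher and 780 lower.

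The 9 genes that shared limma's lowest paired adjusted p of 0.0587 were all lower in Runx3cKO, namely C1qtnf3, Gjc3, Ibsp, Il17b, Il17d, Mgp, Ndrg2, Nrep and Smpdl3b. All 9 passed an adjusted p under 0.05 in limma, at 0.0441 or 0.0442, when the paired fit was combined with quantile normalization, and 5 of them did with median-of-ratios size factors, at 0.0459, both chosen after seeing the data. Il17d encodes a cytokine of the interleukin-17 family, and it measured 40.99, 22.03 and 32.9 FPKM in the Cntl libraries and 16.9, 8.53 and 15.7 FPKM in the Runx3cKO libraries. The groups were apart, and the differences within numbers were -1.23, -1.27 and -1.02. Its relative Il17b measured 15.97, 3.77 and 2.64 FPKM in the Cntl libraries and 6.23, 0.76 and 0.59 FPKM in the Runx3cKO libraries. Cntl library 1 was far above the others and the groups overlapped, yet the differences within numbers were -1.23, -1.44 and -1.19. The values were low, and the log2 fold change of Il17b moved from -1.29 to -0.65 with 5 added in place of 1. It was -0.61 without Cntl library 1 and -1.99 without Runx3cKO library 1. C1qtnf3, a secreted protein of cartilage, measured 91.3, 56.5 and 94.6 FPKM in the Cntl libraries and 38.9, 27.3 and 44.01 FPKM in the Runx3cKO libraries. It was apart. Smpdl3b, a membrane phosphodiesterase, measured 10.03, 11.2 and 8.66 FPKM in the Cntl libraries and 4.17, 4.88 and 3.4 FPKM in the Runx3cKO libraries. It was apart, and its SE without pairing, at 0.16, was the smallest of the 9.

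Most macrophage markers were low, apart from Lgals3 and Hmox1, which other cells express too. Apoe, the lipid carrier, measured 12.6, 3.78 and 12.4 FPKM in the Cntl libraries and 3.3, 1.36 and 1.46 FPKM in the Runx3cKO libraries. Lyz2, a lysozyme of myeloid cells, measured 5.65, 4.69 and 16.2 FPKM in the Cntl libraries and 4.36, 2 and 2.69 FPKM in the Runx3cKO libraries. Both were apart and lower in Runx3cKO. The log2 fold change of Apoe was -1.71 (SE 0.46), and that of Lyz2 was -1.15 (SE 0.44), or -0.66 without Cntl library 3. With 5 added in place of 1, they were -0.99 and -0.71. Of 30 macrophage markers 6 were compared, and 2 of those were lower without overlap and 0 higher, beside 2.78% and 5.26% of all genes compared. The list summed to 830.03, 551 and 291 FPKM in the Cntl and 605, 442 and 297 FPKM in the Runx3cKO libraries, led by Lgals3. The pan-leukocyte marker Ptprc, chosen after its values were seen, was at most 0.08 FPKM in each of the 6 libraries. C1qc, named for DZ cells in the study's own tables from these libraries, measured 0.48, 0.35 and 0.77 FPKM in the Cntl libraries and 0.07, 0 and 0 FPKM in the Runx3cKO libraries and did not pass the filter; the choice of the study on these libraries makes it no independent evidence. The part of such cells in the lower values of Apoe and Lyz2 was not tested.

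On the other side, Lox and several genes of the actin cytoskeleton were higher in Runx3cKO. Lox encodes lysyl oxidase, which crosslinks collagen and elastin, and it measured 14.1, 82.3 and 102 FPKM in the Cntl libraries and 204, 217 and 254 FPKM in the Runx3cKO libraries. The Runx3cKO values were close together and above all Cntl values, and Cntl library 1 stood far below the other Cntl libraries. Lox had a log2 fold change of 2.15 (SE 0.70), and within numbers it was 3.77, 1.39 and 1.31. Without Cntl library 1 it was 1.28. For the 583 higher genes, where a Cntl library is lowest by the way they were chosen, that library was Cntl library 1 in 411. Over all genes compared, Cntl library 1 was the lowest of the 6 in 31.9%. Among the 308 lower genes it was the highest in 139 (45.1%).

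Acta2 encodes smooth muscle actin, which is found in stress fibres of myofibroblasts, and it measured 47.7, 147 and 70.3 FPKM in the Cntl libraries and 302, 401 and 163 FPKM in the Runx3cKO libraries. Its groups were apart by a small margin, and number 2 was highest in both genotypes. Vim, the intermediate filament vimentin, measured 488, 1412 and 793 FPKM in the Cntl libraries and 1957, 2723 and 1439.5 FPKM in the Runx3cKO libraries. It was apart by a narrow margin, since Cntl library 2 nearly reached Runx3cKO library 3. Acta2 had a log2 fold change of 1.76 (SE 0.48), within numbers 2.64, 1.44 and 1.21, and that of Vim was 1.27 (SE 0.42). Myl9, a myosin light chain, measured 4.48, 18.1 and 18.4 FPKM in the Cntl libraries and 23.1, 54.8 and 20.9 FPKM in the Runx3cKO libraries. Vcl, which encodes vinculin of focal adhesions, measured 11.7, 26.9 and 25.3 FPKM in the Cntl libraries and 38.4, 64.5 and 31.99 FPKM in the Runx3cKO libraries. Both were apart. Myl9 had a log2 fold change of 1.29 (SE 0.58), or 0.68 without Cntl library 1, and that of Vcl was 1.06 (SE 0.38), or 0.699 without it. Tagln, an actin-binding protein of smooth muscle, measured 6.77, 38.4 and 19.8 FPKM in the Cntl libraries and 78.4, 126 and 34.1 FPKM in the Runx3cKO libraries. It was higher in each number, and the groups overlapped.

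Of the 23 contractile and actin genes compared, 5 were higher without overlap (Acta2, Myl9, Vcl, Vim and Myh9) and 0 lower, beside 5.26% and 2.78% of all genes compared. The median was 0.89, and 1.58, 0.95 and 0.23 in numbers 1, 2 and 3. In the paired limma fit 19 of 23 were higher at an unadjusted p under 0.05 and 0 lower, beside 11.5% and 4.98% of all genes. Without Cntl library 1 the median was 0.56, and without Runx3cKO library 2 it was 0.50. Without Cntl library 2 or Runx3cKO library 3, 16 and 17 of the list were higher without overlap, with fewer libraries to separate. Over all genes compared, 1486 of 10960 and 1803 of 10983 were higher in those settings. The list summed to 1289, 3279.9 and 2145 FPKM in the Cntl and 4107, 6356 and 2979 FPKM in the Runx3cKO libraries. The S phase list summed to 307, 542 and 246 FPKM in the Cntl and 508, 901 and 238 FPKM in the Runx3cKO libraries, highest in number 2, and 0 of its 39 genes were apart, or 12, all higher, without Runx3cKO library 3 and 2 without Cntl library 2. All 39 had a log2 fold change above 0, and in the paired limma fit 16 were higher at an unadjusted p under 0.05 and 0 lower, beside 11.5% and 4.98% of all genes. Its median was 0.44 overall and 0.68, 0.65 and -0.07 in numbers 1, 2 and 3. It was 0.00 without Runx3cKO library 2, 0.24 without Cntl library 3, 0.73 without Cntl library 2 and 0.87 without Runx3cKO library 3. In the list of immediate early and dissociation genes, 24 of 29 were above 0, with medians of 0.32, 0.35 and 0.05 by number. In its paired limma fit 11 were higher and 1 lower at an unadjusted p under 0.05, beside 11.5% and 4.98% of all genes. Without overlap, 1 of the 29 was higher and 0 lower. Adipocyte markers had 5 of 6 above 0 and a median of 0.63, and simple keratin and desmosome genes 8 of 8 and 0.55. In both of these lists 0 genes were apart. Over all 11091 genes compared, 6910 had a log2 fold change above 0. The part of proliferation, dissociation or other cells in the contractile values was not tested.

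**Figure D3:**
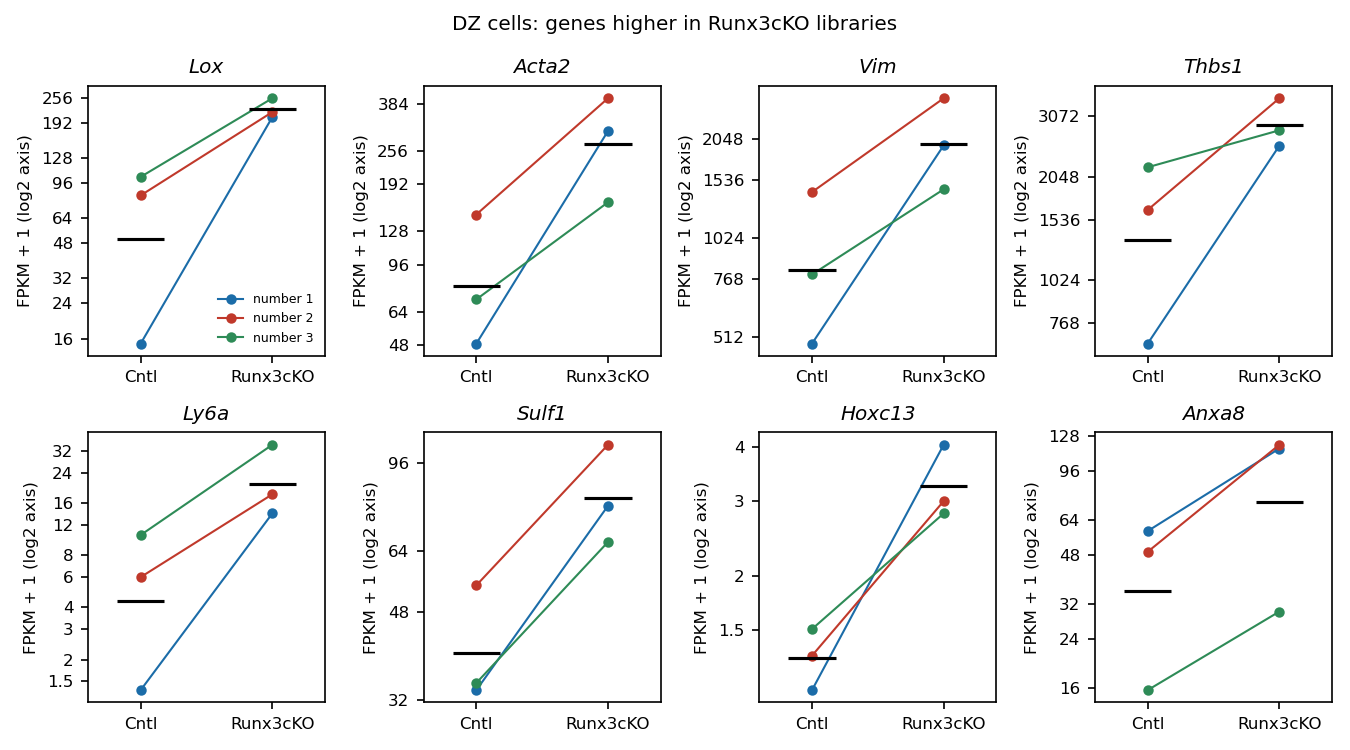
FPKM + 1 on a log2 axis of 8 genes higher in Runx3cKO, in the 6 DZ libraries, with lines joining libraries of the same number and black bars at the mean of log2 values. Each Runx3cKO point lies above the Cntl point of its number, and the groups overlap for Anxa8.

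Of 19 matricellular genes compared, 3 were higher without overlap (Thbs1, Tnc and Cthrc1) and 0 lower, where 5.26% and 2.78% of all genes were. Their median was 0.15, with 7 below 0, or 0.02 without Cntl library 1, 0.09 without Cntl library 2, 0.31 without Cntl library 3 and 0.40 without Runx3cKO library 3. Of all 11091 genes compared, 4181 were below 0. Without Runx3cKO library 3, 6 were higher and 1 lower, and without any 1 Cntl library, 4 and 1. Other matrix genes were apart in both directions, beside 5.26% and 2.78% of all genes compared. In the fibrous and type VI collagen list, 1 of 14 was higher (Col5a2) and 1 lower (Col16a1). In the basement membrane list, 2 of 20 were higher (Col4a5 and Col4a6) and 1 lower (Col15a1). Without Runx3cKO library 3 the first list had 4 higher and 2 lower, and without Cntl library 3 the second had 6 and 1. Thbs1 encodes thrombospondin 1, a matrix protein that can activate latent TGF-beta, and it measured 669, 1638 and 2180.1 FPKM in the Cntl libraries and 2518, 3460.1 and 2792 FPKM in the Runx3cKO libraries. The groups were apart, and its log2 fold change of 1.12 (SE 0.44) was 0.62 without Cntl library 1. Tnc, which encodes tenascin C, measured 25.7, 73.2 and 61.8 FPKM in the Cntl libraries and 90.2, 99.7 and 74.6 FPKM in the Runx3cKO libraries. It was apart by a small margin, at 0.83 (SE 0.38), or 0.37 without Cntl library 1. Sulf1 encodes an enzyme that trims sulfate from heparan sulfate outside the cell, and it measured 32.5, 53.4 and 33.6 FPKM in the Cntl libraries and 77.8, 104 and 65.6 FPKM in the Runx3cKO libraries. The difference was similar in every number, at 1.23, 0.94 and 0.94, and limma's paired adjusted p was 0.0691. Anxa8, an annexin, measured 57.3, 48.1 and 14.7 FPKM in the Cntl libraries and 114, 118 and 29 FPKM in the Runx3cKO libraries. It was higher in each number, the groups overlapped, and it shared that adjusted p. Tnfrsf11b, which encodes osteoprotegerin, the decoy receptor that restrains osteoclasts, measured 30.8, 91.3 and 62.5 FPKM in the Cntl libraries and 231, 189.9 and 97.7 FPKM in the Runx3cKO libraries. It was apart.

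Of 19 surface genes of fibroblasts and mesenchymal progenitors, 2 were higher (Ly6a and Ly6c1) and 1 lower (Nt5e) without overlap, beside 5.26% and 2.78% of all genes compared. Without Cntl library 3 these counts were 5 and 2, without Cntl library 2 they were 4 and 2, and without Runx3cKO library 3 they were 4 and 1. In the paired limma fit 6 of the 19 were higher and 3 lower at an unadjusted p under 0.05, beside 11.5% and 4.98% of all genes. The median was 0.36, with 6 below 0, or 0.09 without Cntl library 1 and 0.18 without Runx3cKO library 2, and it was 0.50, 0.50 and -0.17 in numbers 1, 2 and 3. Of all 11091 genes compared, 4181 were below 0. Ly6a (Sca-1) measured 0.33, 4.99 and 9.49 FPKM in the Cntl libraries and 12.99, 17.04 and 33.9 FPKM in the Runx3cKO libraries. Its relative Ly6c1 measured 0.18, 3.62 and 7.01 FPKM in the Cntl libraries and 9.52, 13.02 and 33.3 FPKM in the Runx3cKO libraries. Both were apart, their libraries followed the same order, and Cntl library 1 was near 0. Ly6a had a log2 fold change of 2.24 (SE 0.76), and that of Ly6c1 was 2.29 (SE 0.76). Without Cntl library 1 they were 1.38 and 1.497, and with 5 added in place of 1 they were 1.44 and 1.41. Within numbers Ly6a differed by 3.39, 1.59 and 1.73. Those differences were 3.16, 1.60 and 2.10 for Ly6c1. Since these are near copies of one family, reads may be divided between them. Vgll3, a transcription cofactor, measured 0.52, 6.66 and 6.76 FPKM in the Cntl libraries and 18.2, 20.2 and 12.1 FPKM in the Runx3cKO libraries. Fhl2, a LIM domain protein that binds transcription factors, measured 4.53, 34.6 and 25.4 FPKM in the Cntl libraries and 49.3, 106 and 55.03 FPKM in the Runx3cKO libraries. Both were apart. The log2 fold change of Vgll3 was 1.96 (SE 0.64), and that of Fhl2 was 1.95 (SE 0.71), and without Cntl library 1 they were 1.18 and 1.13. Vgll3 was at 1.24 with 5 added in place of 1.

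Homeobox genes that pattern the limb included several that were apart. Hoxc13 measured 0.09, 0.31 and 0.51 FPKM in the Cntl libraries and 3.04, 1.99 and 1.8 FPKM in the Runx3cKO libraries. All values were low, and the Cntl libraries were under 1 FPKM. Hoxc10 measured 10.98, 15.3 and 16.9 FPKM in the Cntl libraries and 22.1, 18.1 and 30.4 FPKM in the Runx3cKO libraries. Pitx1, a hindlimb identity factor, measured 20.1, 26.6 and 24.2 FPKM in the Cntl libraries and 33.1, 34.1 and 41.8 FPKM in the Runx3cKO libraries. Both were apart. The log2 fold change of Hoxc10 was 0.66 (SE 0.23), and that of Pitx1 was 0.60 (SE 0.15). Dlx2 measured 0.3, 0.74 and 0.7 FPKM in the Cntl libraries and 3.46, 2.52 and 1.46 FPKM in the Runx3cKO libraries. It was apart, at low levels in Cntl. In the list of Dlx, Msx and Hox genes, 7 of 40 were higher without overlap and 1 lower (Hoxd4), beside 5.26% and 2.78% of all genes compared, with a median of 0.04, or -0.04 with quantile normalization. This list also holds Tbx15 and Pitx1, which are outside those families, and Pitx1 is 1 of the 7. Hoxc13 and Dlx2 count among the 7, and both passed the filter only through the Runx3cKO libraries, where they are high. For these genes the filter itself favoured that direction. With a library left out the median was 0.003, 0.066 and 0.17 without Cntl libraries 1, 2 and 3, and 0.018, 0.093 and -0.017 without Runx3cKO libraries 1, 2 and 3. The counts rested on single libraries, with 7 higher and 7 lower without Cntl library 1, 7 and 2 without Cntl library 2, 14 and 2 without Cntl library 3, 6 and 7 without Runx3cKO library 1, 4 and 4 without Runx3cKO library 2, and 3 and 1 without Runx3cKO library 3. In the paired limma fit 11 of the 40 were higher and 2 lower at an unadjusted p under 0.05, beside 11.5% and 4.98% of all genes. Hoxc13, Dlx2 and the epidermal marker Slurp1, like Mgp, Alpl, Ppp1r1b, Lox, Apoe and Col15a1, are among genes that the study or the choice of this comparison named from these libraries, so their directions are not independent evidence. Of 49 epidermal markers, 9 were compared, and 4 were higher without overlap (Krt10, Sbsn, Perp and Slurp1) and 0 lower, beside 5.26% and 2.78% of all genes compared, while 1 of the 9, Calml3, was lower in each number and, in both the unpaired and the paired limma fit, at an unadjusted p under 0.05. Their sum was 33.9, 35.6 and 39.2 FPKM in the Cntl and 51.3, 61.5 and 52.1 FPKM in the Runx3cKO libraries, led by Perp, and 23 of them were at or under 0.1 FPKM in all 6 libraries. The part of such cells in the higher values was not tested.

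**Figure D4:**
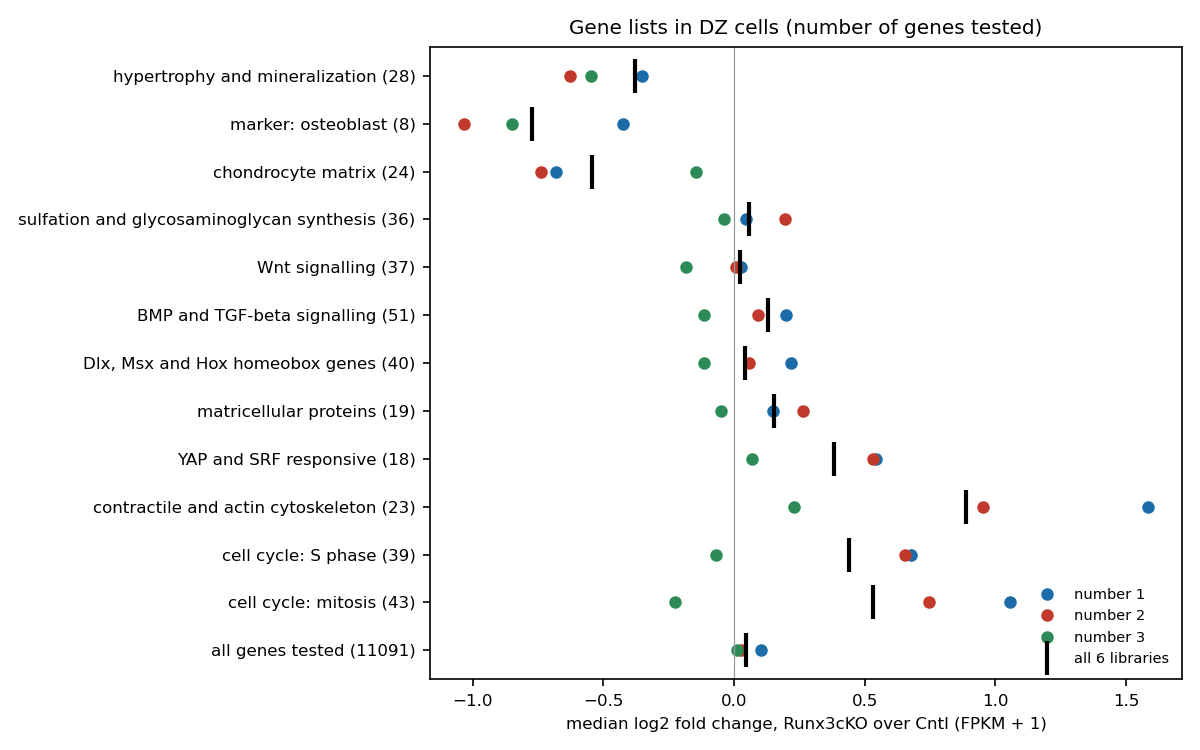
Median log2 fold change (Runx3cKO over Cntl, FPKM + 1) of 12 gene lists and of all genes compared in DZ cells, within each replicate number (coloured points) and over all 6 libraries (black bars). The hypertrophy, osteoblast and chondrocyte matrix lists lie below 0 in each number. The contractile list lies above 0 in each, from 0.23 in number 3 to 1.58 in number 1. The list of YAP and SRF responsive genes also lies above 0 in each. So do all genes compared, at 0.10, 0.03 and 0.01 in numbers 1, 2 and 3.

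The sequences before the start sites of some of these genes were searched for a Runx site and for the CArG box, the site of serum response factor at contractile genes. The promoters are the 250 bases before the start in the RefSeq table of build GRCm38.p6, which held 32851 promoters of 27025 genes, and 8957 of the genes compared had an entry. Mgp, Ppp1r1b and Sp7 had none. The Runx site was searched as TGTGGT or TGCGGT on both strands, so that it also appears as ACCACA or ACCGCA, and the capitals below mark it.
Bglap: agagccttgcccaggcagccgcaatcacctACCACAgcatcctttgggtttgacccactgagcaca
Mmp13: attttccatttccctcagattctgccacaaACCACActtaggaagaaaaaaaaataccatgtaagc
Hapln1: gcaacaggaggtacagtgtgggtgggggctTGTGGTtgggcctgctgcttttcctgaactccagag

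The Bglap window is chr3:88384563-88384628, minus strand, and its site begins 132 bases before the start. The Mmp13 window is chr9:7272366-7272431, plus strand, with the site 118 bases before the start. The Hapln1 window is chr13:89540446-89540511, plus strand, with the site 160 bases before the start. The letters stood in 18.6% of all promoters in the table and in 17.2% of those of the genes compared. They stood in 17.1% of the 315 promoters of genes lower without overlap and in 19.9% of the 639 promoters of genes higher without overlap. In the list for hypertrophy and mineralization, 10 of 27 promoters (37%) held them. Among the members of that list lower without overlap, they were found only before Bglap. None were found before Alpl, Pth1r or Bmp6, and Mgp and Sp7 had no entry. In the cartilage matrix list 5 of 22 (22.7%) did, and in the contractile list 3 of 21 (14.3%). A match is a description of letters and not of binding.

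Among genes higher in Runx3cKO, the CArG box is shown in capitals in a pair of contractile gene promoters.
Myl9: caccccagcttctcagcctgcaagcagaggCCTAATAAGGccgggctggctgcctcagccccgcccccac
Vcl: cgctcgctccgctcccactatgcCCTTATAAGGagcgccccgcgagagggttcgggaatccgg

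The Myl9 window is chr2:156775273-156775342, plus strand, and the Vcl window is chr14:20929148-20929210, plus strand. The CArG box starts 161 bases before the start of Myl9 and 227 bases before that of Vcl. It stood in 1.47% of all promoters, in 1.11% of those of the genes compared, and in 4 of 21 promoters of the contractile list. For genes without overlap, it stood in 2.82% of the 639 promoters of higher genes and in 0.635% of the 315 of lower genes. In the hypertrophy and cartilage matrix lists it stood in 0 of 27 and 0 of 22.

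The DZ difference was set beside that of SFZ cells, which shares no library with it. The Y-linked sums were 42.9, 12.1 and 52.4 FPKM in the SFZ Cntl and 28.3, 0.06 and 0.03 FPKM in the SFZ Runx3cKO libraries, the same pattern by number as in DZ cells, so same-numbered libraries of the zones may come from the same mice, and the zones cannot be taken as independent in animals or in Y transcripts. The fit of both zones did not pair them. Of the 583 genes higher in DZ, 571 were compared in SFZ cells, and 333 (58.3%) had a fold change above 0 there, against 47.5% of all genes. Of the 308 lower genes, 298 were compared, and 167 (56.0%) were below 0, against 52.5% of all genes. Without overlap and in the same direction in SFZ cells were 17 of the 571 higher and 10 of the 298 lower genes, and in the opposite direction 2 and 0, where 162 of all 10953 genes were higher and 107 lower without overlap in SFZ cells. Alpl differed in SFZ cells by -0.92 (SE 0.35), Ibsp by -1.27 (SE 0.80) and Mmp13 by -1.16 (SE 0.29), all in the direction seen in DZ cells. Mgp differed by 0.31 (SE 0.63), Ppp1r1b by -0.05 (SE 0.31), Lox by -0.29 (SE 0.84) and Acta2 by -0.50 (SE 0.93) there. The difference between zones, tested as an interaction over 11765 genes, was -2.21 (SE 0.95) for Mgp, -1.01 (SE 0.36) for Ppp1r1b and 2.44 (SE 1.20) for Lox. At an unadjusted p under 0.05, 99 genes (0.841%) differed between zones, and limma's lowest adjusted p was 0.999, so a difference in effect between zones was not shown for any of these genes. That count depended on the pairing and on single libraries. It was 462 with the replicate block, 714 without SFZ Runx3cKO library 2, 421 without SFZ Cntl library 1, 329 without DZ Runx3cKO library 3 and 174 without DZ Cntl library 2. It was 62 without DZ Runx3cKO library 2, 55 without DZ Cntl library 1, 55 without SFZ Runx3cKO library 3, 52 without SFZ Cntl library 3 and 36 without SFZ Cntl library 2, with 0 genes past the adjusted threshold in each.

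**Figure D5:**
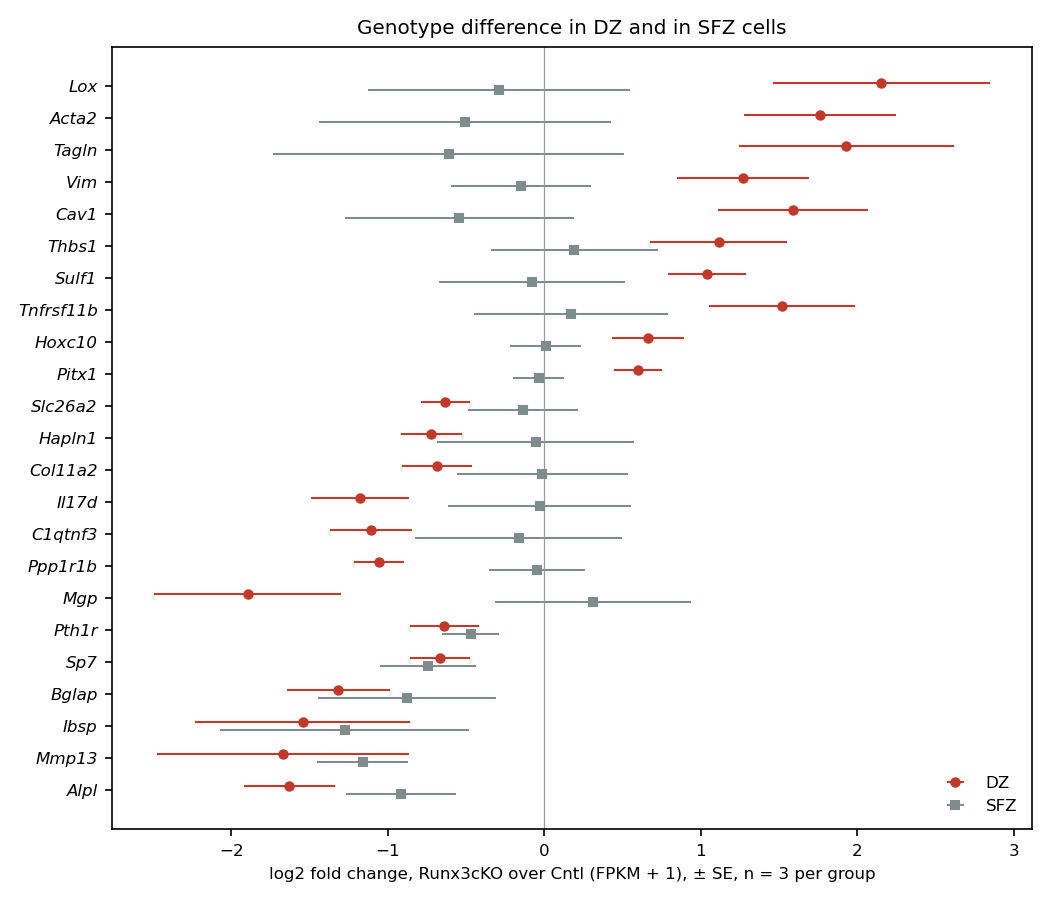
Log2 fold change (Runx3cKO over Cntl, FPKM + 1) of 23 genes in DZ cells (red circles) and SFZ cells (grey squares), with bars of ± 1 SE and 3 libraries per group. Alpl, Ibsp, Mmp13, Bglap, Sp7 and Pth1r lie below 0 in both zones.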

How the data were processed

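RNA from monolayer SFZ and DZ chondrocytes of 3 individual littermates per genotype was sequenced and mapped to mm9 by the authors, with Bowtie 0.12.2 named in the processing notes. The study describes quantile normalization, then linear modelling of log2 counts per unit of library size. For their own tables of DZ genes, from which the study's named genes come, the authors used DESeq2 with its negative binomial model. The deposited values are FPKM scaled between libraries by TMM; this unit was inferred from the values. Counts were not used here.

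Values were analysed here as log2(FPKM + 1). Genes were kept if 3 or more DZ libraries reached 1 FPKM. Genotype was fitted with limma 3.58.1 in R 4.3.3 (trend, two-sided, Benjamini-Hochberg adjustment over all genes compared), and tables and plots were made with Python 3.11.15, pandas 2.3.3, numpy 2.4.6 and matplotlib 3.10.9. Pairing rests on the replicate numbers in the library titles. Deviations from the group mean correlated between same-numbered libraries (r = 0.65, 0.79 and 0.69 over 11074 genes) and were below 0 for all other pairs, in part because deviations within a group sum to 0. Genes are not independent replicates.

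Named genes were the Runx genes, Cbfb and genes the study names for DZ cells, the 25 largest and 25 smallest fold changes among genes without overlap, the 15 lowest paired p-values in each direction, list members without overlap, the 3 most abundant members and largest changes of a list, and Y- and X-linked genes. Members and lists were chosen with earlier results of these data known. Promoters came from RefSeq on GRCm38.p6, and gene positions from GENCODE M1 on mm9.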

Additional observations from a re-analysis of the deposited data

Results flagged for a closer look

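For 2 genes all 3 DZ Runx3cKO values lay above the 3 DZ Cntl values while all 3 SFZ Runx3cKO values lay below the 3 SFZ Cntl values. They were chosen after their values were seen. Aff2 differed between zones by 0.59037 on the log2 scale, DZ minus SFZ, with a limma adjusted p of 0.999 for the interaction. Ift140 differed by 0.27408, with the same limma adjusted p. Of the 571 genes higher in DZ cells and compared in SFZ cells, 2 were apart and lower there and 17 apart and higher. Of the 298 lower ones, 0 were apart and higher and 10 apart and lower. Among 10953 genes compared in both zones, 162 were apart and higher and 107 apart and lower in SFZ cells.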

How the results depend on the processing

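Counts at an unadjusted p under 0.05 in DZ cells depended on the settings. Against 404 genes, 696 were counted with no filter on low values and 184 with a mean of at least 10 FPKM, where fewer genes were tested. The paired fit (replicate block) gave 1830, and, in alternatives chosen after seeing the data, 1954 with quantile normalization and 1801 with median-of-ratios size factors. Quantile normalization and the block together gave 9 genes, and median-of-ratios with the block 5, at a limma adjusted p under 0.05, against 0 in the other settings run. Left-out libraries gave 168 to 773. Genes without overlap numbered 425 at a mean of at least 10 FPKM and 1439 to 3724 with libraries left out, which leaves fewer samples to separate. Of 78 named genes, 50 kept their direction at that filter, where fewer were tested. The zone difference counted 41 genes at a mean of at least 10 FPKM, 252 with no filter, 462 with the block, and 36 to 714 with a library left out. The cause was not tested for the changes not tied to fewer genes or samples.

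Of 1504 values of single genes under alternatives, 1475 kept direction and side of the threshold, 14 passed it, 2 were 0 (Col2a1 with quantile normalization, with and without the block, where the top gene of every library gets the same value) and 13 reversed, in 4 genes. With libraries left out, Runx3 ranged from -0.089 to 0.37, Col10a1 from -1.31 to 0.45, Spp1 from -0.26 to 0.53 and Sox9 from -0.060 to 0.15. Spp1 was -0.019 with median-of-ratios size factors, with or without the block; the cause was not tested. The list of skeletal muscle markers had no gene at a mean of at least 10 FPKM and gave no value. Depth is unknown and limits low values in a way that could not be measured.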

Other observations

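Other gene groups differed in their medians between genotypes in DZ cells. In the mitosis list, 43 of 43 genes compared had a log2 fold change above 0, with a median of 0.53, but the medians were 1.06, 0.74 and -0.23 in numbers 1, 2 and 3, and 0 genes were without overlap, or 3, all higher, without Runx3cKO library 3. In the paired limma fit 9 of the 43 were higher at an unadjusted p under 0.05 and 0 lower, beside 11.5% and 4.98% of all genes. The median was -0.05 without Runx3cKO library 2, 0.20 without Cntl library 3, 1.01 without Cntl library 2 and 1.22 without Runx3cKO library 3. In the list of glycolysis and hypoxia genes, 29 of 34 were below 0, with a median of -0.23 and medians of -0.31, -0.45 and 0.13 by number, and 2 were higher and 2 lower without overlap. The median was -0.12 without Cntl library 1, -0.13 without Runx3cKO library 2 and -0.38 without Cntl library 3, where 19 genes were lower without overlap. Over all genes compared, 812 of 10984 were lower in that setting. Without Runx3cKO library 1 the count in the list was 4, and without Runx3cKO library 3 it was 7. All genes gave 658 of 10922 and 780 of 10983 there. In the list of chemokines and cytokines, 3 of 15 were higher without overlap and 0 lower, with a median of 0.51 that was above 0 in each number and was 0.30 without Runx3cKO library 2. The counts were 6 higher and 1 lower without Runx3cKO library 3, 5 and 1 without Cntl library 2, and 5 and 0 without Cntl library 3. In the paired limma fit 8 of the 15 were higher at an unadjusted p under 0.05 and 0 lower, beside the shares over all genes given above. Over all genes compared, 5.26% were higher without overlap and 2.78% lower. Over all 11091 genes compared the median was 0.05, with 6910 above 0 and 4181 below. What moved these lists was not tested.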
